A study of Mus musculus with 12 samples.

Results

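A set of 39 interferon-stimulated genes was followed in splenic conventional dendritic cells (cDCs) of mice that lack or carry Zfp366, the gene for the zinc finger protein DC-SCRIPT. The genes were chosen by name as members of the interferon response, their rows were found by Entrez identifier in a count table of 27179 genes, and a member was kept at 1 CPM, a count scaled to library size, or more in at least 3 libraries. All 39 named genes had a row and met that level, as did 12395 genes of the whole table. The study sequenced polyA RNA of sorted type 1 (cDC1) and type 2 (cDC2) cells in 12 libraries from female C57/BL6 mice. The 4 groups of 3 libraries were cDC1 of zfp366-/- mice (KO), cDC1 of zfp366+/+ mice (WT), cDC2 of KO mice and cDC2 of WT mice. Each library came from 1 mouse pool, and each of the 6 pools gave 1 cDC1 and 1 cDC2 library. The labels give no age, do not restrict the deletion to a cell type, and record no treatment of the mice.

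Type I interferons act through the receptor IFNAR and the kinases JAK1 and TYK2, which activate a complex that includes STAT2 and IRF9. That complex binds the interferon-stimulated response element (ISRE) in promoters and switches on genes that sense viral RNA, block its translation or degrade nucleotides and proteins. Dendritic cells both make interferon and respond to it, and cDC1 need the response to prime cytotoxic T cells against tumours.

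Total counts ran from 11330503 to 36761685 per library. Zfp366 itself had 48.8, 48.4 and 45.4 CPM in KO cDC1, against 152, 89.2 and 67.5 CPM in WT cDC1 (log2 fold change -1.12, adjusted p 0.0326, edgeR's quasi-likelihood test). In cDC2 it had 55.0, 80.6 and 65.1 CPM in KO libraries and 52.6, 62.4 and 57.4 CPM in WT libraries, so its counts did not separate the genotypes there. The deleted part of the gene is not given in the sources used here. Of 8 markers each, 7 cDC1 markers were higher and 8 cDC2 markers were lower in WT cDC1 than in WT cDC2 by the same test, as the subset labels say. The cDC2 libraries numbered 1 stood apart. Among 708 other genes called between KO and WT cDC1, those at least 2-fold apart within a cDC2 pair had the sign of the cDC1 change in 34 of 117 cases (29.1%) for the pair numbered 1. The same held in 82 of 115 cases (71.3%) for the pair numbered 2 and in 112 of 163 cases (68.7%) for the pair numbered 3. The libraries labelled cDC2 KO replicate 1 and cDC2 WT replicate 1 thus went against the other pairs. Whether these 2 labels were exchanged was not tested and cannot be told from the labels; every value of these libraries is given under its deposited label, and the sign of their genotype difference is only as sure as that label. Counts of called members and of called pathway genes in the genotype comparisons are given with and without them. The 708 genes and the counts of called markers are given with all libraries only. The library cDC1 WT replicate 1 also stood apart. Without it, edgeR called 22.3% of all genes between KO and WT cDC1, against 5.32% with all libraries. Leaving out any other cDC1 library instead gave 2.32% to 2.80%. The cause was not tested.

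The promoters show what many of the genes share. RefSeq windows of 300 bases (250 before and 50 after a start, build GRCm38.p6) existed for 29 of the 39 genes, in 40 windows. The ISRE core, searched as GAAA, then any 2 bases, then GAAA, on both strands, was found in 13 of the 29 genes (44.8%), against 4.01% of the 10086 tested genes with a window. By window, the shares were 15 of 40 (37.5%) and 3.44% of all 32851 windows. The gamma-activated element (GAS) TTCNNNGAA was found in 7 of the 29 genes (24.1%), against 8.19% of the tested genes. These are letter matches, not measured binding. The stretches below are from RefSeq (GRCm38.p6), written 5′ to 3′ on the gene's strand, with ISRE core matches in capitals. They are shown for 5 of the 6 genes called between KO and WT cDC1, and for Isg15, whose matches overlap one another. Capital runs that begin with TTTC are the core read on the opposite strand.
Ddx58, chr4:40239806-40239915, minus strand: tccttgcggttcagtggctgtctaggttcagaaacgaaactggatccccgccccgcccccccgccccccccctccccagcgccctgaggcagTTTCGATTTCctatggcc
Ifit1, chr19:34640739-34640858, plus strand: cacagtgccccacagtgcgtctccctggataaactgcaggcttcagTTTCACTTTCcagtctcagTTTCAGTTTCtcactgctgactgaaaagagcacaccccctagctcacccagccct
Ifit3, chr19:34583349-34583468, plus strand: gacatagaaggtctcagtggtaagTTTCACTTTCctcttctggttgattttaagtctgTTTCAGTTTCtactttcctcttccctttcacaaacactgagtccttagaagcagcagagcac
Ifit3b, chr19:34607745-34607864, plus strand: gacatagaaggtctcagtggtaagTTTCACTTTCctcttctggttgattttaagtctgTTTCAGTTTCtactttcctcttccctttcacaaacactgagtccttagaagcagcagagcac
Rsad2, chr12:26456483-26456602, minus strand: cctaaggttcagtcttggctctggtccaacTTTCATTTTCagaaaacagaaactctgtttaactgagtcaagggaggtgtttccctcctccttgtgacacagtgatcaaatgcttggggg
Isg15, chr4:156200819-156200938, minus strand: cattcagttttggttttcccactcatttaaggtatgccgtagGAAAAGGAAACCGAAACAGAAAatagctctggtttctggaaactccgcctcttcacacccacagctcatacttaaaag
The Ifit3 and Ifit3b stretches, placed to align, begin 180 and 212 bases before their RefSeq starts and were identical at 120 of 120 bases. The end of the Ifit3b window was not found in the transcripts of that gene. Each of Ifit1, Ifit3 and Ifit3b held 2 core matches, Isg15 held 3, and Rsad2 and Ddx58 held 1 each. The sixth called gene, Rtp4, is named only.

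KO against WT in cDC1 asked what loss of DC-SCRIPT does to the interferon-stimulated genes of that subset. In KO cDC1, 6 of the 39 genes rose. They were Ddx58, an RNA sensor (RIG-I), the IFIT family genes Ifit1, Ifit3 and Ifit3b, the antiviral enzyme gene Rsad2 (viperin), and Rtp4, a receptor chaperone with antiviral activity. Of the 39, none fell and 33 did not pass the test (edgeR's quasi-likelihood test, Benjamini-Hochberg adjusted over 13415 genes, threshold 0.05). Over all genes, 3.60% rose and 1.72% fell in the same comparison. The log2 fold changes of the 39 ran from -0.58 to 3.17 with a median of 0.79, beside a median of 0 over all genes, and 35 were positive. All 3 KO libraries lay above all 3 WT libraries for 26 genes and below them for 1, Trafd1, against 15.5% and 11.4% of all genes. At an unadjusted p below 0.05 there were 25 of the 39, beside 18.8% of all genes. The count depended on the libraries numbered 1: without the cDC2 pair numbered 1, 17 genes rose, where 5.73% of all genes did, and without the cDC1 pair numbered 1, 9 rose and 1 (Ifi35) fell, where 7.49% and 5.37% of all genes did. The summed level of the 39 was 3098, 3397 and 3423 CPM in KO cDC1, against 2353, 2371 and 2286 CPM in WT cDC1. In bulk samples, fewer cells of a type and less RNA per cell cannot be told apart.

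**Figure D1:**
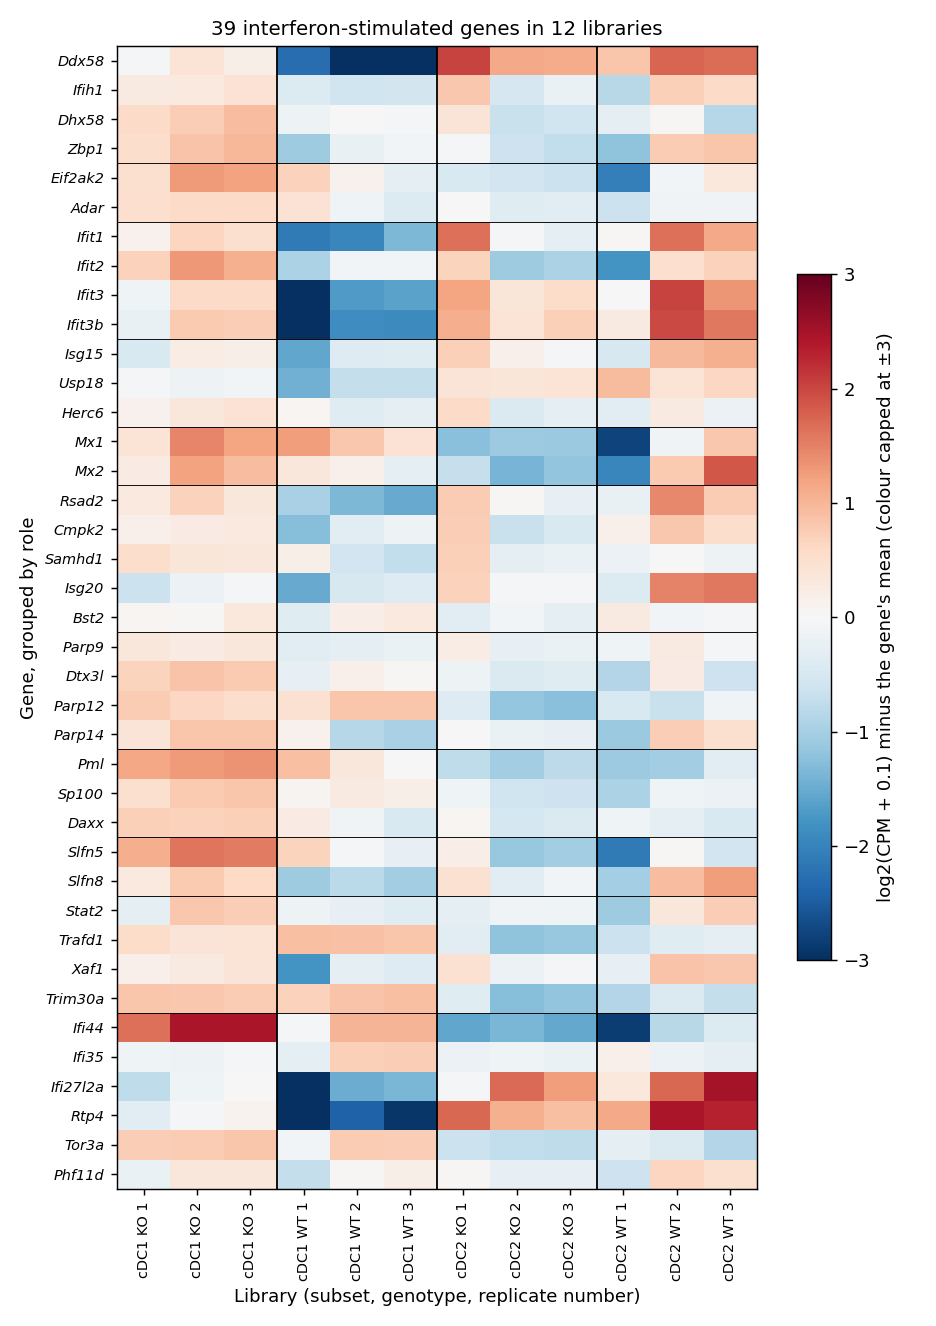
Each row is 1 of the 39 genes and each column 1 of the 12 libraries, KO left of WT in each subset; colour is log2(CPM + 0.1) minus the gene's mean, capped at ±3, and lines separate role groups. Most genes are redder in KO than in WT cDC1, and in cDC2 the libraries numbered 1 show the reverse of those numbered 2 and 3.

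Markers of other cell types moved in the same comparison. The summed level of 8 cDC2 markers was 481 to 491 CPM in KO cDC1 and 58.9 to 78.6 CPM in WT cDC1, against 1768 to 1918 CPM in WT cDC2. Of the 8, 7 rose in KO cDC1, where 3.60% of all genes rose and 1.72% fell. The 7 monocyte markers summed to 4532 to 5783 CPM in KO cDC1 and 2262 to 2889 CPM in WT cDC1, against 3969 to 5363 CPM in WT cDC2. Nr4a1 and Plac8 held most of these sums. Nr4a1 had 3463, 2406 and 2427 CPM in KO cDC1 and 2352, 1041 and 795.5 CPM in WT cDC1. Plac8 had 1658, 1590 and 1791 CPM in KO cDC1 and 393, 1142 and 1415 CPM in WT cDC1. Of the 7 markers, 2 rose, Ccr2 (2.92, adjusted p 0.018, edgeR) and Cx3cr1 (2.05, adjusted p 0.0136). The other 5 did not pass, with changes of 0.99 for Nr4a1, 0.77 for Plac8, 0.40 for Csf1r, -0.09 for Fcgr1 and -0.18 for Ly6c2. The 8 plasmacytoid dendritic cell markers, which include the member Bst2, summed to 132 to 156 CPM in KO cDC1 and 143 to 169 CPM in WT cDC1, of which Bst2 held 88.5 to 107 and 66.8 to 106 CPM. Of these 8, Ccr9 (-1.98, adjusted p 0.0287, edgeR) and Pacsin1 (-3.19, adjusted p 0.0486) fell and none rose. Among 8 cDC1 markers Itgae fell (-4.02, adjusted p 0.00296), and among 8 red pulp macrophage markers Vcam1 fell (-0.87, adjusted p 0.0475). The part of these markers in the results below was not tested.

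**Figure D2:**
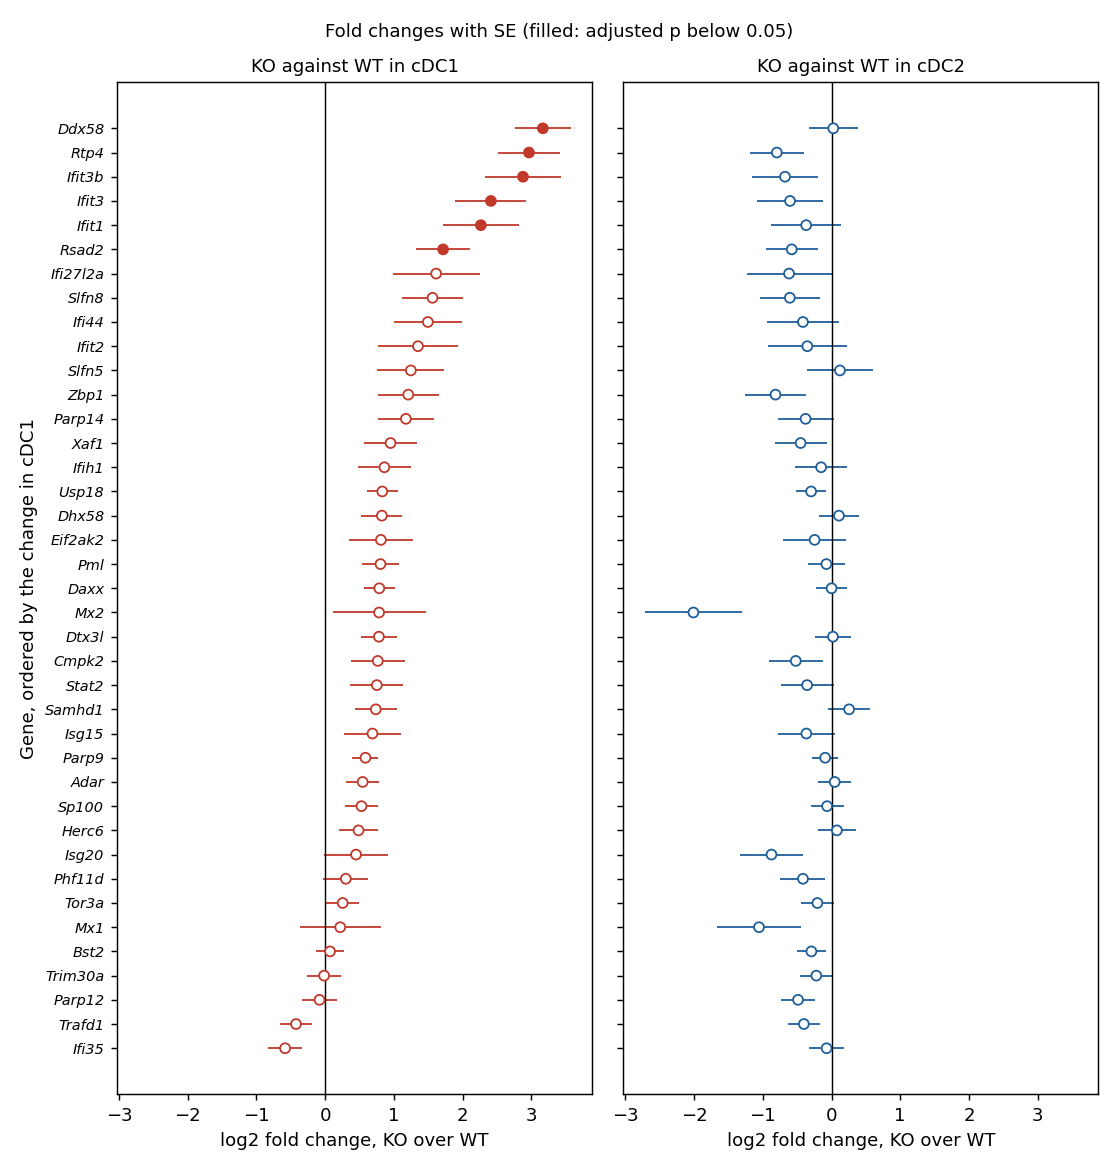
Points are log2 fold changes of KO over WT in cDC1 (left) and cDC2 (right), bars are ± 1 SE, and filled points passed the test. In cDC1 the fold changes run from -0.58 to 3.17 with 6 filled; in cDC2 they run from -2.01 to 0.26 with none filled.

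The sensors bind foreign or misplaced nucleic acid. Ddx58 had 16.4, 22.2 and 19.0 CPM in KO cDC1, against 3.35, 1.48 and 1.56 CPM in WT cDC1. Every KO library was far above every WT library, a log2 fold change of 3.17 (SE 0.40, adjusted p 0.000553, edgeR's quasi-likelihood test). In cDC2, Ddx58 had 68.8, 36.8 and 36.2 CPM in KO libraries and 29.8, 56.1 and 53.6 CPM in WT libraries, so the groups overlapped and the first library of each group broke the order of the others. KO cDC1 thus had more Ddx58 than WT cDC1, yet every KO cDC1 library stayed below every cDC2 library. Ifih1, the sensor MDA5 for long double-stranded RNA, had 53.5, 53.7 and 59.9 CPM in KO cDC1, against 32.9, 29.2 and 29.9 CPM in WT cDC1. The groups did not overlap, but the change of 0.86 did not pass (SE 0.38, adjusted p 0.25, edgeR). Dhx58, the regulator LGP2 of both sensors, had 72.8, 82.2 and 92.3 CPM in KO cDC1, against 43.7, 48.6 and 47.3 CPM in WT cDC1, again without overlap and without passing (0.83, SE 0.30, adjusted p 0.152). Zbp1, a Z-nucleic-acid sensor that can start cell death, ran from 42.9 to 58.9 CPM in KO cDC1 and from 14.2 to 28.0 CPM in WT cDC1.

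Eif2ak2 encodes the kinase PKR, which halts translation on double-stranded RNA, and Adar an enzyme that edits such RNA. Eif2ak2 had 29.0, 50.6 and 48.1 CPM in KO cDC1 and 33.3, 22.8 and 16.8 CPM in WT cDC1, and the groups overlapped through the libraries numbered 1. Adar had 97.6, 103 and 102 CPM in KO cDC1, against 92.9, 63.1 and 51.7 CPM in WT cDC1. Neither passed (log2 fold changes of 0.81 and 0.55, adjusted p 0.376 and 0.244, edgeR).

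The IFIT proteins bind viral RNA ends or translation factors, and 3 of the 4 rose in KO cDC1. Ifit1 had 6.64, 9.55 and 8.39 CPM in KO cDC1, against 1.32, 1.48 and 2.31 CPM in WT cDC1. Ifit3 had 11.2, 18.2 and 18.2 CPM in KO cDC1, against 1.32, 3.67 and 3.93 CPM in WT cDC1. Its near copy Ifit3b had 4.30, 8.84 and 8.52 CPM in KO cDC1, against 0.33, 1.33 and 1.27 CPM in WT cDC1. For each of the 3, the groups did not overlap, and the libraries numbered 1 were the lowest of their group. The log2 fold changes were 2.27 for Ifit1 (SE 0.55, adjusted p 0.0326), 2.41 for Ifit3 (SE 0.52, adjusted p 0.0169) and 2.88 for Ifit3b (SE 0.55, adjusted p 0.00825, all edgeR's quasi-likelihood test). Leaving out any 1 of 5 cDC1 libraries (KO replicates 1, 2 or 3, WT replicates 2 or 3) ended the call of Ifit1 (adjusted p up to 0.146, edgeR). Its change stayed at 2.145 to 2.546. Leaving out KO replicate 2, KO replicate 3 or WT replicate 2 ended that of Ifit3 (up to 0.0618), with changes of 2.307 to 2.597. These fits called 2.32% to 2.80% of all genes, against 5.32% with all libraries. Ifit2 had 39.5, 59.6 and 50.7 CPM in KO cDC1, against 12.6, 23.1 and 23.1 CPM in WT cDC1. It did not overlap either, but its change of 1.35 had a larger SE of 0.58 and did not pass (adjusted p 0.236, edgeR). Transcripts of Ifit3 and Ifit3b share sequence: 51.2% of the 50-base stretches of Ifit3 occur in Ifit3b and 44.5% of those of Ifit3b in Ifit3, so the split of reads between them is uncertain. Ifit1 and Ifit3b also lie within the span of the gene model Ifit1bl1.

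In cDC2 the same genes had the opposite order in the libraries numbered 2 and 3. Ifit1 had 19.0, 5.91 and 4.91 CPM in KO cDC2, against 6.21, 19.1 and 13.4 CPM in WT cDC2. Ifit2 had 38.8, 11.5 and 12.5 CPM in KO cDC2, against 6.94, 34.2 and 39.4 CPM in WT cDC2. Ifit3 had 27.9, 15.7 and 17.9 CPM in KO cDC2, against 12.2, 50.5 and 31.0 CPM in WT cDC2. In all 3 genes the library labelled KO replicate 1 was the highest of its group and the library labelled WT replicate 1 the lowest of its group. Ifit3b had 10.9, 6.81 and 8.39 CPM in KO cDC2, against 6.10, 20.2 and 15.5 CPM in WT cDC2, with the same order.

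ISG15 is a ubiquitin-like protein that Herc6 attaches to target proteins in mice and USP18 removes. Isg15 had 38.6, 61.5 and 59.9 CPM in KO cDC1, against 17.9, 40.5 and 40.9 CPM in WT cDC1, and the groups overlapped. Usp18, which also blocks IFNAR signalling, had 52.7, 48.2 and 50.5 CPM in KO cDC1, against 19.7, 32.7 and 32.7 CPM in WT cDC1. It did not overlap and was the gene just outside the threshold (0.83, SE 0.22, adjusted p 0.0502, edgeR). Herc6 ran from 36.7 to 46.0 CPM in KO cDC1 and from 26.4 to 35.5 CPM in WT cDC1 and did not pass (adjusted p 0.381).

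The dynamin-like GTPases Mx1 and Mx2 trap viral particles. RefSeq classes both as transcribed pseudogenes in the C57BL/6J reference. Mx1 had 18.7, 39.0 and 31.7 CPM in KO cDC1 and 33.3, 24.6 and 18.9 CPM in WT cDC1, with overlap. Mx2 had 3.10, 6.16 and 5.04 CPM in KO cDC1 and 3.30, 2.91 and 2.08 CPM in WT cDC1, also with overlap. In cDC2, Mx2 had 1.56, 0.924 and 1.09 CPM in KO libraries, against 0.596, 4.51 and 9.65 CPM in WT libraries. Its change of -2.01 was the lowest of the 39 in cDC2 (SE 0.70, adjusted p 1, edgeR), and the library labelled WT replicate 1 lay below all 3 KO libraries.

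Rsad2 makes a nucleotide that ends viral RNA chains, from the product of its neighbour Cmpk2. Rsad2 had 26.6, 35.1 and 27.5 CPM in KO cDC1, against 11.1, 8.47 and 7.57 CPM in WT cDC1. The groups were well apart, with a log2 fold change of 1.72 (SE 0.39, adjusted p 0.0228, edgeR's quasi-likelihood test). Leaving out any KO replicate, or WT replicate 2 or 3, ended that call (adjusted p up to 0.108). Cmpk2 ran from 8.87 to 9.66 CPM in KO cDC1 and from 3.19 to 7.05 CPM in WT cDC1 and did not pass (0.77, adjusted p 0.322). Samhd1, which degrades deoxynucleotides, had 708, 637 and 629.7 CPM in KO cDC1, against 556, 334 and 294 CPM in WT cDC1. Its groups did not overlap, and its change of 0.74 did not pass (SE 0.30, adjusted p 0.212). Bst2, or tetherin, which holds budding viruses at the membrane, had 90.5, 88.5 and 107 CPM in KO cDC1 and 66.8, 99.5 and 106 CPM in WT cDC1, with overlap and a change of 0.07. Isg20, an exonuclease gene, had a change of 0.45 (adjusted p 0.646).

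Among the PARP proteins, which transfer ADP-ribose, Parp9 had 89.7, 84.2 and 89.4 CPM in KO cDC1, against 56.7, 57.1 and 61.5 CPM in WT cDC1. Its ubiquitin ligase partner Dtx3l ran from 83.2 to 95.0 CPM in KO cDC1 and from 44.1 to 58.2 CPM in WT cDC1. Both were apart in every library, yet neither passed (0.59 and 0.78, adjusted p 0.106 and 0.123, edgeR). The gene models of the pair overlap by 558 bases, and the strand setting of the counting is not given in the sources used here. Parp14 had 76.6, 104 and 104 CPM in KO cDC1, against 64.1, 32.1 and 29.7 CPM in WT cDC1 (1.17, adjusted p 0.14). Parp12, which blocks translation of viral RNA, went the other way in sign, at -0.08.

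PML, SP100 and DAXX are proteins of nuclear bodies that restrain DNA viruses. Sp100 had 171, 211 and 217 CPM in KO cDC1, against 129, 148 and 138 CPM in WT cDC1. Daxx had 57.1, 56.6 and 56.7 CPM in KO cDC1, against 41.0, 32.4 and 25.3 CPM in WT cDC1. Both were without overlap, and their changes of 0.53 and 0.79 did not pass (adjusted p 0.26 and 0.0678, edgeR). Pml ran from 61.4 to 70.9 CPM in KO cDC1 and from 27.6 to 51.4 CPM in WT cDC1 (0.81, adjusted p 0.118).

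Schlafen genes encode regulators of translation and of lymphocyte quiescence. Slfn5 had 139, 198 and 192 CPM in KO cDC1, against 104, 63.6 and 55.6 CPM in WT cDC1 (1.25, SE 0.49, adjusted p 0.184, edgeR). Slfn8 had 19.5, 27.2 and 24.0 CPM in KO cDC1, against 7.42, 8.93 and 7.57 CPM in WT cDC1 (1.56, SE 0.44, adjusted p 0.0648). Neither gene overlapped between genotypes, and neither passed. Slfn8 shares 9.30% of its 50-base stretches with Slfn9, and Slfn5 overlaps the gene model Slfn5os.

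Not every interferon-stimulated gene had a positive sign in KO cDC1. Trafd1, a brake on innate signalling, had 224, 198 and 201 CPM in KO cDC1, against 284, 283 and 270.3 CPM in WT cDC1. All KO libraries were below all WT libraries, and the change of -0.42 did not pass (SE 0.23, adjusted p 0.361, edgeR). Ifi35 had 93.5, 91.7 and 98.7 CPM in KO cDC1, against 83.6, 169.9 and 172 CPM in WT cDC1. Its WT libraries were split, with replicate 1 below all 3 KO libraries (-0.58, SE 0.25, adjusted p 0.236). Trim30a, a ubiquitin ligase gene that dampens NF-kappaB signalling, had 315, 308 and 302 CPM in KO cDC1 and 283, 319 and 332 CPM in WT cDC1, with overlap and a change of -0.01. Stat2, part of the ISRE-binding complex, ran from 36.8 to 78.7 CPM in KO cDC1 and from 35.0 to 40.5 CPM in WT cDC1. Xaf1, a cell death regulator, ran from 16.3 to 19.1 CPM in KO cDC1 and from 4.18 to 12.1 CPM in WT cDC1. Neither Stat2 nor Xaf1 passed (adjusted p 0.322 and 0.202).

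Rtp4 had 9.43, 11.6 and 12.8 CPM in KO cDC1, against 0.66, 2.14 and 1.503 CPM in WT cDC1. The lowest KO library was well above the highest WT library (2.97, SE 0.44, adjusted p 0.00171, edgeR's quasi-likelihood test). In cDC2 it had 39.4, 25.2 and 22.3 CPM in KO libraries and 26.3, 65.0 and 59.7 CPM in WT libraries, and the groups overlapped. Ifi27l2a had 91.4, 141 and 157 CPM in KO cDC1, against 11.7, 54.9 and 60.4 CPM in WT cDC1. WT replicate 1 was far below the other WT libraries, and the change of 1.61 did not pass (SE 0.63, adjusted p 0.187). Among the remaining genes, Ifi44 ran from 18.8 to 33.1 CPM in KO cDC1 and from 5.72 to 12.2 CPM in WT cDC1 (1.49, adjusted p 0.113), and Tor3a, a torsin family ATPase gene, and Phf11d had changes of 0.26 and 0.30.

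**Figure D3:**
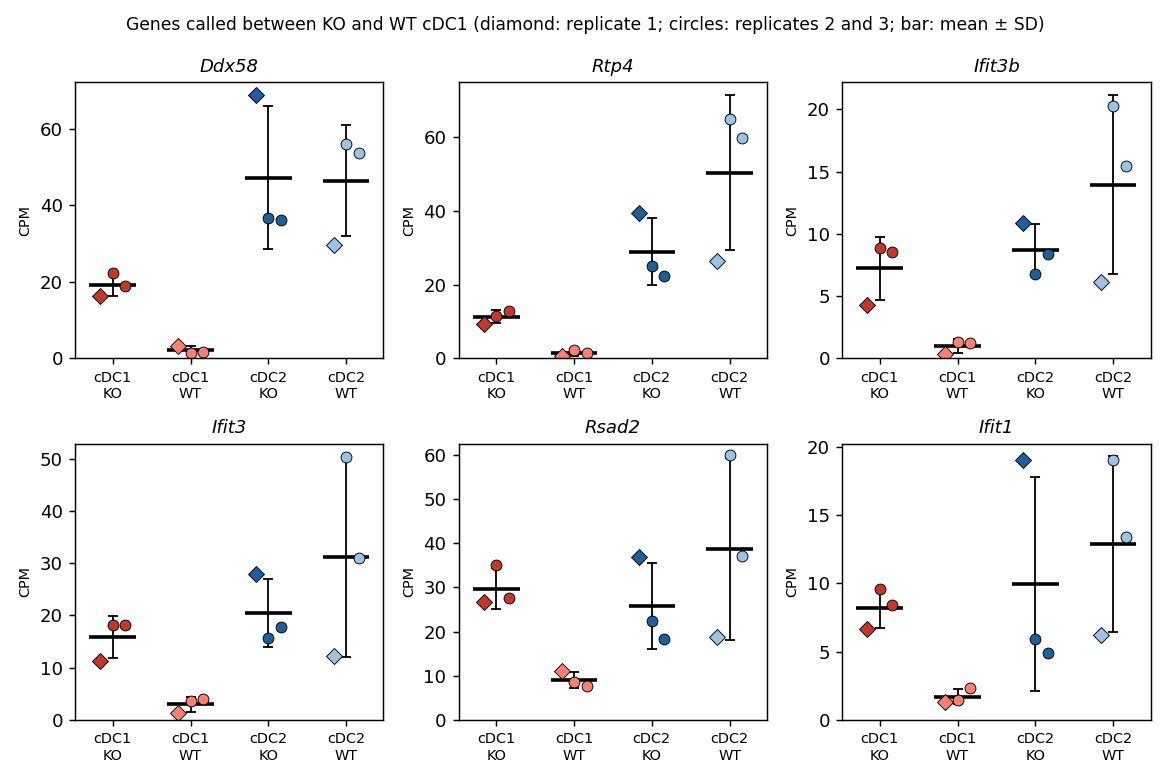
CPM of the 6 genes called between KO and WT cDC1, in each library of the 4 groups; diamonds are replicate 1, circles replicates 2 and 3, and bars are the mean ± SD of 3 libraries. In every panel the KO cDC1 libraries lie above the WT cDC1 libraries, as with 16.4 to 22.2 against 1.48 to 3.35 CPM for Ddx58.

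KO against WT in cDC2 asked the same question in the other subset. With all 3 libraries per group, 0 of the 39 genes passed in either direction (edgeR's quasi-likelihood test), as did 0% of all genes, and DESeq2 and limma-voom with the mouse pool as a random block also gave 0 members. At an unadjusted p below 0.05 there was 1 member, Mx2, beside 2.02% of all genes. All KO libraries lay below all WT libraries for 2 genes, Usp18 and Bst2, and above them for none, against 2.55% and 3.33% of all genes. The changes ran from -2.01 to 0.26 with a median of -0.36, against 0.02 over all genes, and 31 of 39 were negative. The 3 libraries of a genotype did not agree in direction. In the pair numbered 1, KO was above WT for 34 of 39 genes, with a median log2 ratio of 0.82. In the pair numbered 2 it was above for 2 and below for 37 (median -0.83), and in the pair numbered 3 above for 5 and below for 34 (median -0.79). Across all genes, KO was above WT in 49.7% to 53.4% of genes in each cDC2 pair. For 33 genes both KO libraries lay below both WT libraries in replicates 2 and 3, beside 24.0% of all genes, and 30 of these 33 had KO above WT in the pair numbered 1. Among all genes with that order, 74.1% did so.

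**Figure D4:**
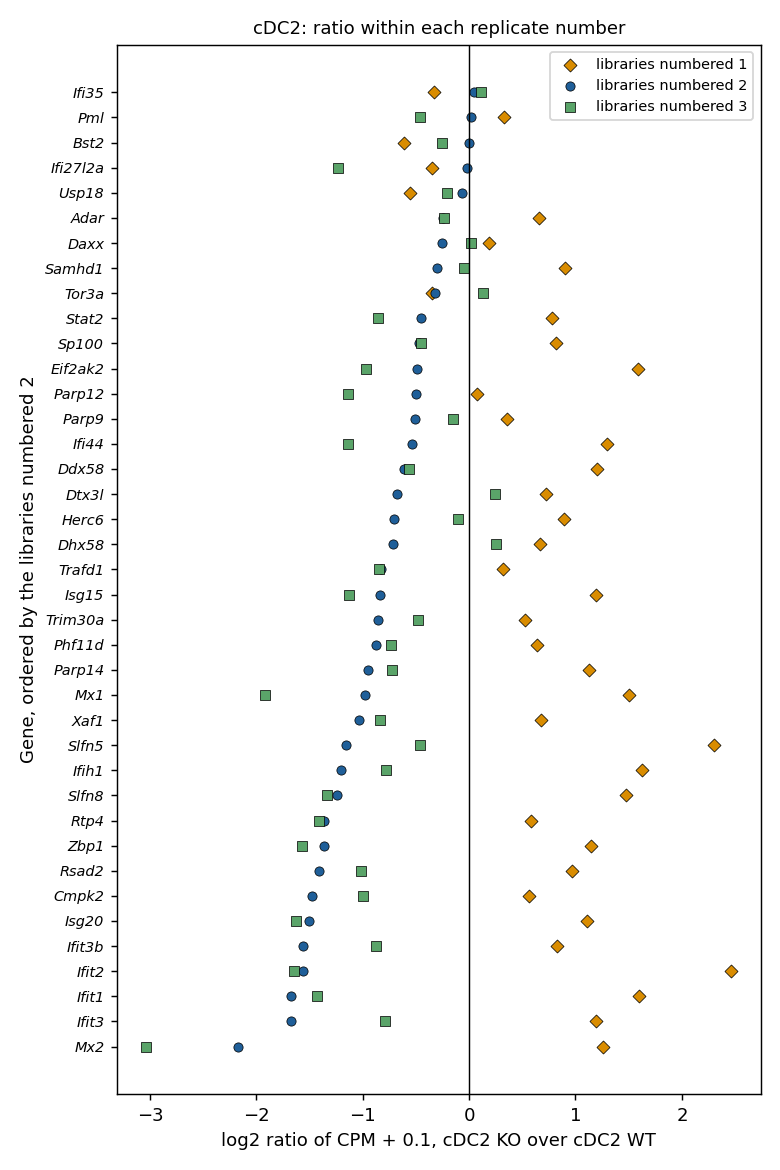
Each row is 1 of the 39 genes, and points are log2 ratios of CPM + 0.1 in cDC2 KO over cDC2 WT, for the libraries numbered 1 (diamonds), 2 (circles) and 3 (squares). Diamonds lie right of 0 for 34 genes; circles lie left of 0 for 37 and squares for 34.

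Library by library, most but not all sensors and enzymes had that order. Ifih1 had 76.8, 31.0 and 38.3 CPM in KO cDC2, against 24.9, 71.8 and 65.8 CPM in WT cDC2. Dhx58 had 63.6, 30.6 and 32.02 CPM in KO cDC2 and 39.9, 50.2 and 26.8 CPM in WT cDC2. Rsad2 had 36.8, 22.4 and 18.3 CPM in KO cDC2, against 18.8, 59.9 and 37.2 CPM in WT cDC2. For all 3 genes the library labelled KO replicate 1 was the highest KO library, while the library labelled WT replicate 1 was the lowest WT library for Ifih1 and Rsad2 only. Dhx58 did not have the order of the others, since its WT replicate 3 lay below all 3 KO libraries. Eif2ak2 had 15.1, 13.8 and 13.1 CPM in KO cDC2, against 4.94, 19.4 and 25.8 CPM in WT cDC2. Adar had 69.6, 53.5 and 54.2 CPM in KO cDC2 and 44.2, 63.6 and 64.0 CPM in WT cDC2. Isg15 had 87.1, 58.3 and 50.6 CPM in KO cDC2, against 38.0, 104 and 111 CPM in WT cDC2. In these 3 the library labelled WT replicate 1 was below every KO library and the other WT libraries were above KO replicates 2 and 3.

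Usp18 had 70.5, 68.7 and 71.2 CPM in KO cDC2, against 104, 71.9 and 82.5 CPM in WT cDC2. Bst2 had 68.2, 81.4 and 71.1 CPM in KO cDC2, against 104, 81.6 and 84.6 CPM in WT cDC2. These were the genes without overlap, and for both the highest library was the one labelled WT replicate 1, so they did not follow the pattern of the others. Mx1 had 5.76, 6.55 and 6.38 CPM in KO cDC2, against 1.963, 13.0 and 24.4 CPM in WT cDC2, with the WT libraries spread around the KO libraries. Samhd1 had 818, 403 and 430.3 CPM in KO cDC2 and 439, 498 and 446 CPM in WT cDC2. Only the library labelled KO replicate 1 stood apart there.

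Parp9 had 82.5, 59.6 and 61.8 CPM in KO cDC2 and 64.4, 84.7 and 68.5 CPM in WT cDC2. Parp14 had 59.0, 51.0 and 49.3 CPM in KO cDC2, against 27.0, 98.3 and 81.8 CPM in WT cDC2. Sp100 had 112, 81.3 and 80.0 CPM in KO cDC2 and 63.3, 112 and 109.5 CPM in WT cDC2. In each of the 3 the library labelled WT replicate 1 was the lowest of its group. Daxx had 35.9, 23.9 and 25.7 CPM in KO cDC2 and 31.6, 28.4 and 25.3 CPM in WT cDC2, the groups lying over each other. Slfn5 had 74.8, 29.9 and 31.9 CPM in KO cDC2, against 15.1, 66.8 and 43.8 CPM in WT cDC2. Slfn8 had 21.8, 12.7 and 14.9 CPM in KO cDC2, against 7.78, 30.2 and 37.7 CPM in WT cDC2. Both Schlafens crossed over between the libraries numbered 1 and the others.

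Trim30a had 138, 72.7 and 77.8 CPM in KO cDC2 and 95.8, 132 and 108 CPM in WT cDC2. Trafd1 had 122, 66.5 and 69.9 CPM in KO cDC2 and 97.6, 118 and 126 CPM in WT cDC2. For both, the library labelled KO replicate 1 lay among or above the WT libraries. Ifi27l2a had 152, 506 and 373 CPM in KO cDC2 and 194, 514 and 874 CPM in WT cDC2, and here the libraries numbered 1 were the lowest of either genotype. Ifi35 had 90.4, 94.3 and 89.9 CPM in KO cDC2 and 114, 91.5 and 83.3 CPM in WT cDC2, with overlap.

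Fitting replicates 2 and 3 of all groups alone, 26 of the 39 genes fell in KO cDC2 and none rose, where 4.37% of all genes fell and 3.35% rose. This fit has 2 libraries per group and leaves out the cDC2 pair in which KO was above WT for 34 of the 39 genes. The count of calls in cDC2 thus depends on the libraries kept, and with all libraries 0 of the 39 passed. The median change of the 39 was -0.84 in this fit, against -0.36 with all libraries. The 26 include all 4 IFIT genes, for example Ifit2 (-1.62, SE 0.15, adjusted p 6.36e-05, edgeR) and Ifit1 (-1.59, SE 0.27, adjusted p 0.00401). Mx2 had the lowest value, -2.79 (SE 0.44, adjusted p 0.00229). Others were Zbp1 (-1.47), Isg20 (-1.58), Rtp4 (-1.39), Slfn8 (-1.29), Isg15 (-0.98) and Trafd1 (-0.84). Ddx58 had -0.59 (SE 0.14, adjusted p 0.0246), against 0.03 with all libraries. Usp18, Samhd1, Bst2, Daxx, Pml and Ifi35 were among the 13 that did not pass. With only the cDC2 pair numbered 1 left out, and all cDC1 libraries kept, 3 genes fell, Ifih1, Mx2 and Slfn8, where 0.434% of all genes fell. Leaving out the cDC1 pair numbered 1 as well gave the 26. In the same replicates 2 and 3, 30 genes rose and 2 fell (Trafd1 and Ifi35) in KO cDC1, where 24.9% of all genes rose and 22.9% fell.

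The test of the difference between the genotype effects, cDC1 minus cDC2, called 3 of the 39 genes, all higher: Rtp4 (3.76, SE 0.59, adjusted p 0.00568), Ddx58 (3.14, SE 0.53, adjusted p 0.00935) and Ifit3b (3.55, SE 0.73, adjusted p 0.0324, edgeR's quasi-likelihood test). Over all genes, 1.27% were higher. The differences had a median of 1.11, against -0.04 over all genes, and 37 of 39 were positive. Ifit3 and Rsad2 were just outside, at 3.02 (adjusted p 0.0576) and 2.29 (adjusted p 0.0612). With the mouse pool as a block, since each pool gave both subsets, Ddx58 was no longer called (adjusted p 0.102, edgeR), while Rtp4, Ifit3b, Ifit3 and Ifi27l2a were. Leaving out any of 8 libraries, replicates 2 and 3 of each group, ended the call of Ifit3b (adjusted p up to 0.101). Without the cDC2 pair numbered 1 the count was 15, where 2.03% of all genes were higher. Within replicates 2 and 3, 34 were higher and 1 (Ifi35) lower, where 20.3% and 18.1% of all genes were.

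WT cDC1 against WT cDC2 gave the starting levels. In WT cDC1, 12 of the 39 genes were lower and 6 higher than in WT cDC2, where 10.9% and 10.4% of all genes were so. The changes ran from -5.12 to 1.87. The libraries did not overlap for 11 genes lower and 7 higher in WT cDC1, against 16.2% and 16.5% of all genes. Lowest in WT cDC1 was Rtp4, at 0.66, 2.14 and 1.503 CPM against 26.3, 65.0 and 59.7 CPM in WT cDC2 (-5.12, SE 0.48, adjusted p 9.74e-06, edgeR). Ddx58 followed (-4.44, SE 0.42, adjusted p 1.06e-05), at 1.48 to 3.35 CPM in WT cDC1 against 29.8 to 56.1 CPM in WT cDC2. Also lower were Ifit3b (-3.82), Ifi27l2a (-3.64), Ifit3 (-3.39), Ifit1 (-2.92), Rsad2 (-2.09), Isg20 (-1.84), Slfn8 (-1.65), Usp18 (-1.60), Isg15 (-1.35) and Xaf1 (-1.23). Higher were Ifi44 (1.87, SE 0.52, adjusted p 0.0213), Trim30a (1.48), Trafd1 (1.29), Pml (1.25), Parp12 (1.11) and Tor3a (1.03). Trim30a had 283, 319 and 332 CPM in WT cDC1, against 95.8, 132 and 108 CPM in WT cDC2, without overlap. The library labelled cDC2 WT replicate 1 enters this comparison, and without the cDC2 pair numbered 1 the counts were 18 lower and 6 higher, where 11.9% and 12.9% of all genes were. Within replicates 2 and 3 they were 22 lower and 8 higher, where 24.3% and 23.2% were. Leaving out cDC2 WT replicate 2 or 3 ended the calls of Isg15, Isg20, Slfn8 and Xaf1. Leaving out cDC1 WT replicate 1 ended those of Isg15 and Xaf1, cDC1 WT replicate 2 those of Isg15 and Ifi44, and cDC1 WT replicate 3 those of Isg15, Slfn8, Xaf1 and Ifi44. Without cDC1 KO replicate 2 or 3, Isg15 and Xaf1 were also lost, as was Xaf1 without cDC1 KO replicate 1 or cDC2 KO replicate 3. These KO libraries are not in the comparison, but all libraries share 1 estimate of spread, 1 filter and 1 adjustment. The cause of these losses was not tested. With the mouse pool as a block, Slfn8 was lost (adjusted p 0.0855, edgeR).

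This comparison and the genotype comparison share the WT cDC1 libraries, so their values are set side by side only. Ddx58 had 3.17 for KO against WT in cDC1 and -4.44 for WT cDC1 against WT cDC2, Rtp4 had 2.97 and -5.12, Ifit3b 2.88 and -3.82, Ifit3 2.41 and -3.39, Ifit1 2.27 and -2.92, and Rsad2 1.72 and -2.09. Among genes higher in WT cDC1, Trim30a had -0.01 and 1.48, Trafd1 -0.42 and 1.29, and Ifi44 1.49 and 1.87.

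Levels of different genes were compared per kilobase of gene length (CPM per kilobase). Highest in KO cDC1 were Ifi27l2a at 280.0, Samhd1 at 164 and Bst2 at 124, while Bst2 at 118, Trafd1 at 112 and Ifi35 at 104 led in WT cDC1. In cDC2, Ifi27l2a led with 742 in KO and 1139 in WT, and without the libraries numbered 1 it led with 949 in KO and 1499 in WT. The lowest value in WT cDC1 was 0.431, for Ddx58. The Ifi27l2a gene model overlaps that of Ifi27, and 18 of the 39 genes overlap another gene model in all.

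Other genes of the pathway were examined in 4 lists. None of 21 interferon ligand genes reached 1 CPM in any library, and 17 had 0 reads in all 12. The 4 with reads had 55 in all, of which Ifng had 45 and Ifnb1 had 5. The Ifnb1 reads were all in KO cDC1, in replicates 1 and 2 (0.0398 and 0.158 CPM). A gene without a read may still be present up to a mean of 0.0105 CPM over all libraries together, which 3 reads over all libraries give. This is a limit for counting error only, and the limit for a single library or group is higher. Among 14 receptors, kinases and transcription factors, 2 rose in KO cDC1 and none fell, where 3.60% of all genes rose and 1.72% fell. The receptor chain Ifnar2 ran from 101 to 126 CPM in KO cDC1, against 62.2 to 66.6 CPM in WT cDC1 (0.81, SE 0.21, adjusted p 0.0411, edgeR). Irf1, a transcription factor that binds ISRE-like elements, had 218, 186 and 184 CPM in KO cDC1, against 109, 111 and 97.5 CPM in WT cDC1 (0.89, SE 0.22, adjusted p 0.0329). Both were without overlap. The factors Irf9 and Irf7 did not pass (0.15 and 0.76, adjusted p 0.794 and 0.176, edgeR).

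Of 6 negative regulators, 2 rose in KO cDC1, where 3.60% of all genes did. Socs3, an inhibitor of cytokine receptor signalling, had 107, 56.2 and 50.2 CPM in KO cDC1, against 15.9, 14.5 and 13.1 CPM in WT cDC1 (2.29, SE 0.30, adjusted p 0.000614, edgeR). The phosphatase gene Ptpn6 (SHP-1) had a change of 1.35 (adjusted p 0.00134). Of 12 adaptors and kinases of nucleic acid sensing, Sting1, the adaptor of the cytosolic DNA pathway, rose: it had 181, 143 and 153 CPM in KO cDC1, against 41.7, 40.0 and 35.1 CPM in WT cDC1 (2.03, SE 0.32, adjusted p 0.00221). With all libraries no gene of these lists passed in cDC2, and none did without the cDC2 pair numbered 1. Without that pair, 3 of the 14, 2 of the 6 and 1 of the 12 rose in KO cDC1 and none fell, where 5.73% of all genes rose. With replicates 2 and 3 alone, 7 of the 14 receptors, kinases and transcription factors fell in KO cDC2, where 4.37% of all genes did. Among them were Irf7 (-0.93, adjusted p 0.000263, edgeR), Irf1 (-0.84), Irf9 (-0.61), Ifnar1 (-0.56) and Ifnar2 (-0.47). In that fit Socs3 also fell in KO cDC2 (-0.57, adjusted p 0.0406, edgeR), and Sting1 rose (0.48, adjusted p 0.0358). In KO cDC1 of that fit, 8 of the 14 rose and 1 fell, 4 of the 6 rose, and 4 of the 12 rose and 1 fell. Over all genes, 24.9% rose and 22.9% fell there. With all libraries, the difference of effects was called for Irf1 (1.48, adjusted p 0.0334), Socs3 (2.93, adjusted p 0.00272) and Sting1 (2.11, adjusted p 0.0333, all edgeR). Without the cDC2 pair numbered 1 these were 1.73 for Irf1 (adjusted p 0.00584), 2.86 for Socs3 (adjusted p 0.00707) and 1.55 for Sting1 (adjusted p 0.0101), and Ifnar2, Irf7 and Ptpn6 were called as well (1.28, 1.69 and 1.31).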

How the data were processed

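Polyadenylated RNA of 12 sorted cDC libraries was prepared with a TruSeq kit after RNeasy Plus extraction, per the labels' protocols. The authors deposited raw read counts per Entrez gene, with no normalization; reads were counted with featureCounts on GRCm38 (mm10), per the submitters' processing notes, which give no version. RefSeq's GRCm38.p6 table gave symbols for 25275 of 27179 genes, and rows without one held 2.23% of reads. Groups came from the labels. Total counts of 11330503 to 36761685 and n = 3 set the precision.

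Counts of the 12 libraries entered a single edgeR model (version 4.0.16, R 4.3.3) with 4 group means (TMM scaling, filterByExpr, robust quasi-likelihood F test, Benjamini-Hochberg over 13415 genes, threshold 0.05); SE was derived as the absolute log2 change divided by sqrt(F). CPM values are TMM-scaled, and ratios within a pair add 0.1 CPM. The procedure was run on simulated counts of independent libraries, with changes set in KO cDC1 only. Those counts held no deviant pair and no shared mouse pool, so they cannot speak to either. DESeq2 1.42.0 and limma-voom with the mouse pool as a random block (limma 3.58.1) were alternatives, beside other scalings and filters, a replicate block, a fixed mouse pool block, a gene length offset, leaving out libraries, and fits without the libraries numbered 1; those leaving out only one subset's pair numbered 1, and the fixed mouse pool block, were added after seeing the data.

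The members and lists were chosen with earlier results of these data known. Values in every library are given for genes called in a genotype comparison or in the difference of effects, and for up to 2 more per role group, those of highest mean CPM; others are given by range or fold change, some with library values where a comparison turned on them. Same-numbered KO and WT libraries had residual correlations of 0.02, -0.07 and 0.11 (cDC1) or -0.05, -0.05 and -0.06 (cDC2), so the numbers were not taken to pair genotypes. The labels tie a cDC1 to a cDC2 library by mouse pool, with same-pool correlations of 0.26, 0.14 and 0.14 in KO and -0.20, -0.11 and -0.07 in WT.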

Additional observations from a re-analysis of the deposited data

Results flagged for a closer look

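The effect of the genotype differed between the subsets for 3 of the 39 genes by edgeR's quasi-likelihood test of the difference itself (cDC1 minus cDC2, log2). All 3 were higher, as were 1.27% of all genes. Rtp4 differed by 3.76 (SE 0.59, adjusted p 0.00568), a call kept in every alternative run. Ddx58 differed by 3.14 (SE 0.53, adjusted p 0.00935), but with the mouse pool as a fixed block it was no longer called (adjusted p 0.102, edgeR). Ifit3b differed by 3.55 (SE 0.73, adjusted p 0.0324). It was no longer called without replicate 2 or 3 of any group, nor by limma-voom with the mouse pool as a random block (adjusted p 0.162), and its reads cannot be fully told from those of Ifit3.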

How the results depend on the processing

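Counts of called genes moved most with the libraries used, and the share of all genes called moved with them. For KO against WT in cDC1 (6 genes, beside 5.32% of all genes), DESeq2 gave 11 (9.82%), the fit of only the groups compared 11 (7.02%) and the gene length offset 10 (7.31%). Replicates 2 and 3 alone gave 32 (47.8%), no cDC2 pair numbered 1 gave 17 (8.88%), and no cDC1 pair numbered 1 gave 10 (12.9%). Leaving out 1 library each gave 3 to 13. The fits that gave 3 called 2.32% to 2.52% of all genes. There were 13 (22.3%) without cDC1 WT replicate 1 and 11 (6.83%) without cDC2 WT replicate 1. In cDC2 (0 genes), replicates 2 and 3 alone gave 26 (7.72%), and no cDC2 pair numbered 1 gave 3 (0.898%). For the difference of effects (3 genes, beside 1.42%), DESeq2 gave 8 (3.58%), the gene length offset 7 (2.25%), replicates 2 and 3 alone 35 (38.3%) and no cDC2 pair numbered 1 15 (2.47%). There, leaving out 1 library each gave 2 to 10. The fits that gave 2 called 0.802% to 1.48% of all genes, and 10 (1.63%) were called without cDC2 WT replicate 1. For the WT subsets (18 genes, beside 21.2%), replicates 2 and 3 alone gave 30 (47.5%) and the fit of only the groups compared 11 (12.2%). The replicate block gave 8 (5.46%), 0 (0%), 4 (1.44%) and 18 (22.4%) in these 4 comparisons, and Ifit1 lost its call in cDC1 (adjusted p 0.0634, edgeR). Ddx58 (-0.59, against 0.03) and Slfn5 (-0.85, against 0.12) turned negative in cDC2 with replicates 2 and 3 alone. The cause of these shifts was not tested. Fits of fewer libraries have fewer residual degrees of freedom, and their estimate of spread, filter and adjustment differ as well. The median change of the 39 genes in cDC1 was 0.79 both with all libraries and without the cDC2 pair numbered 1. Limma-voom with the mouse pool as a random block, which changes the method and adds a block together, ended the cDC1 calls of Ifit1, Ifit3 and Ifit3b (adjusted p 0.123, 0.0605 and 0.0598). Ddx58 and Rtp4 kept their cDC1 calls in every alternative run. Low counts limit Ifit3b, Rtp4, Ifit1, Ifit3 and Ddx58 in WT cDC1, where their lowest library had 6, 12, 24, 24 and 27 reads.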
